A study of Sus scrofa with 6 samples.

Results

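The genes described here are the leukocyte adhesion molecules that a cell carries on its surface, with SELE and VCAM1 as the leading pair. Their members were taken by identifier for SELE and VCAM1 and by pig gene symbol for ICAM1, ICAM2, SELP, CD44, ALCAM and MCAM. Of these 8 symbols, 7 had a row among the 25149 genes of the count tables and ICAM2 is not analysed here. SELE and VCAM1 were chosen because they stood out in the comparison of complement with baseline, so their values in that comparison are given as a description, with no p-value.

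RNA was sequenced in bulk from neonatal porcine Sertoli cells (NPSC), the supporting cells of the seminiferous tubule, isolated from the testes of wild-type newborn Duroc-Landrace pigs. Testes were collected from 3 litters, each of 4 pigs. The cells were grown as a monolayer in DMEM with fetal bovine serum, and each library came from 1 plate. The 3 baseline NPSC plates received only media, and the 3 complement NPSC plates received an equal volume of pooled human serum whose complement had been preserved, for 90 min. A shared litter for same-numbered plates is neither stated nor denied in the labels, and heat-inactivated serum is not among the samples, so complement and the other contents of human serum cannot be told apart.

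Leukocytes leave the blood in steps. Selectins such as E-selectin (SELE) and P-selectin (SELP) catch the cell by its sugars and let it roll, and immunoglobulin-like molecules such as VCAM1 and ICAM1 then hold it by binding the integrins on its surface. SELE, VCAM1 and ICAM1 are textbook targets of NF-κB, induced by TNF and interleukin-1 and best known from activated endothelium, whereas P-selectin is also stored ready-made in endothelial granules and platelets. VCAM1 and ICAM1 have also been described on Sertoli cells and other stromal cells of the testis, and CD44, ALCAM and MCAM are adhesion molecules of wide distribution.

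Library totals ranged from 3641518 to 8371923 counts, and the 3 lowest belonged to the complement group. Levels are given as CPM, counts scaled to the same library size after normalization for library composition, and as CPM per kb of exon where genes are set side by side. Counts on 48 olfactory receptor genes, which are not known to be used in this cell type, served as a measure of background. Their density was 2.15, 1.20 and 1.18 CPM per kb in the baseline libraries and 4.01, 4.43 and 1.51 in the complement libraries, so complement libraries 1 and 2 carried the most. The defining Sertoli cell markers SOX9, WT1, GATA4, CLDN11, INHA and CLU were all present. The summed level of 14 Sertoli cell markers ran from 5092 to 7798 CPM in baseline and from 3377 to 3991 CPM in complement NPSC. These ranges did not overlap, but CLU made up most of the sum, with means of 4694 and 2634 CPM. The means of all the markers just named were lower in complement NPSC, as were those of FSHR, NR5A1 and CITED1. Those of DHH, KRT18, AARD, DMRT1 and TF on the same list were higher. Markers of other cells were present too. The sum of 10 endothelial markers, among them PECAM1 and KDR, was 902, 695 and 1074 CPM in the baseline and 711, 557 and 1252 CPM in the complement libraries, and no endothelial marker had groups that did not overlap. Complement library 3 had the highest endothelial sum and the highest SELE and ICAM1 levels, whereas VCAM1 was highest in complement library 1. Among the complement libraries it also had the highest Sertoli, Leydig, peritubular myoid and germ cell marker sums. Its macrophage and leukocyte marker sums were the lowest of the complement libraries.

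SELE encodes E-selectin, which is mainly known as an induced molecule and slows leukocytes in the bloodstream. It was counted at 17.0, 8.67 and 10.7 CPM in the 3 baseline libraries and at 43.0, 31.3 and 69.8 CPM in the 3 complement libraries. Every complement library lay above every baseline library, and complement library 3 was the highest. The means were 12.1 ± 4.33 CPM in baseline and 48.0 ± 19.8 CPM in complement NPSC (SD, n = 3 each), a log2 fold change (LFC) of 1.99 with a standard error of 0.31, or 3.98-fold. The LFC was 1.59 without complement library 3 and 1.79 without baseline library 2. SELE stood at rank 34 from the top among the 17512 tested genes by LFC.

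**Figure D1:**
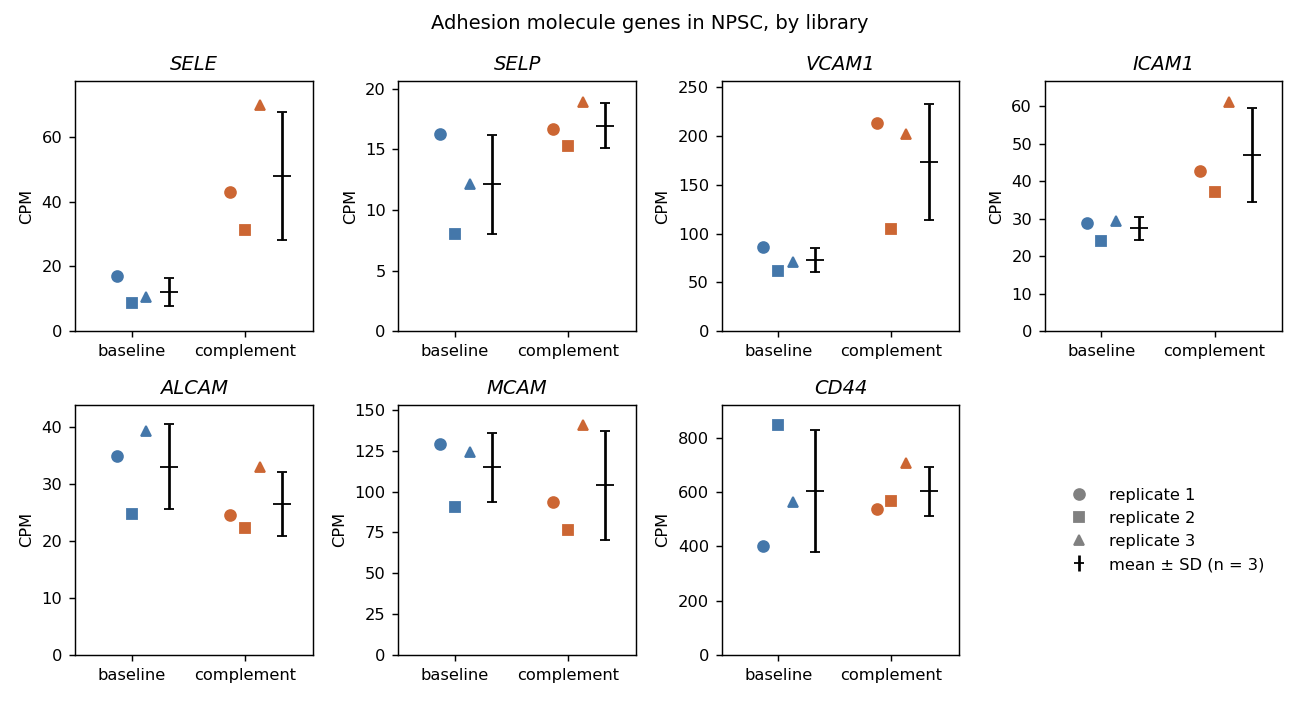
Level of each of the 7 adhesion genes in CPM (vertical axis, starting at 0) in the 3 baseline (blue) and 3 complement (orange) libraries, with the mark giving the replicate number and the black bar the mean ± SD. The complement libraries of SELE (31.3 to 69.8 CPM), VCAM1 (104 to 213 CPM) and ICAM1 (37.2 to 61.1 CPM) lie above all their baseline libraries, and the groups of the other 4 genes overlap.

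VCAM1 holds leukocytes that carry the integrin α4β1, such as lymphocytes and monocytes. Its baseline libraries had 86.5, 61.3 and 70.9 CPM, and its complement libraries had 213, 104 and 202 CPM. The groups did not overlap, but complement library 2 lay nearer to the baseline libraries than to the other complement libraries. From 72.9 ± 12.7 CPM the mean went to 173 ± 59.7 CPM (SD, n = 3 each), an LFC of 1.25 with a standard error of 0.26, or 2.38-fold. VCAM1 ranked 503 from the top by LFC.

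ICAM1, the ligand of the β2 integrins on nearly all leukocytes, was measured at 29.0, 24.0 and 29.5 CPM in baseline and at 42.7, 37.2 and 61.1 CPM in complement NPSC. Here too the complement libraries all lay above the baseline libraries, with complement library 3 highest. The means were 27.5 ± 3.05 and 47.0 ± 12.5 CPM (SD, n = 3 each). The LFC was 0.78 with a standard error of 0.22 and did not pass the edgeR quasi-likelihood test (adjusted p = 0.261 over all tested genes). Under the alternatives without pairing its adjusted p ran from 0.0692 to 0.647. With same-numbered libraries treated as pairs (the replicate block), a pairing that the labels do not state, its LFC was 0.76. There its edgeR adjusted p was 0.000448, and 4.16% of all genes passed both thresholds. ICAM1 was beyond the LFC threshold of 1 in 1 alternative, at 1.04 with the background density as a covariate, where its adjusted p was 0.0753.

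SELP, the P-selectin of platelets and endothelial granules, was measured at 16.2, 8.05 and 12.1 CPM in baseline and at 16.7, 15.3 and 18.9 CPM in complement NPSC. The groups overlapped, since baseline library 1 lay above complement library 2. Its LFC was 0.48 with a standard error of 0.29 (edgeR adjusted p = 0.401). Per kb of exon, the levels of the 2 selectins were 3.60 CPM for SELE and 3.93 CPM for SELP in baseline, with overlapping libraries. In complement NPSC they did not overlap, at 9.30 to 20.8 CPM per kb for SELE and 4.94 to 6.13 CPM per kb for SELP.

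ALCAM, an immunoglobulin-like molecule that binds CD6 on T cells, had 34.8, 24.8 and 39.3 CPM in baseline and 24.5, 22.2 and 32.8 CPM in complement NPSC, with overlapping groups. Its LFC was -0.31 with a standard error of 0.23 (edgeR adjusted p = 0.476). MCAM, also known as CD146 and found on endothelium, pericytes and smooth muscle, had 129, 90.9 and 124 CPM in baseline and 93.7, 76.8 and 141 CPM in complement NPSC. Those groups overlapped as well, and the LFC was -0.14 with a standard error of 0.24 (edgeR adjusted p = 0.745). The sign of the MCAM value turned without complement library 2, to 0.01, and with the background density as a covariate, to 0.11.

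CD44, the main receptor for hyaluronan, was the most abundant of the 7. It had 401, 846 and 565 CPM in baseline and 536, 566 and 706 CPM in complement NPSC. The baseline libraries spread further than the complement libraries and enclosed them. The means were 604 ± 225 and 603 ± 90.9 CPM (SD, n = 3 each), with an LFC of -0.00, a standard error of 0.30 and an edgeR adjusted p of 0.997. With upper-quartile normalization the CD44 value was 0.11, and the median over all tested genes shifted by 0.11 under that scaling.

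Across all tested genes, 18 passed an adjusted p below 0.05 with an LFC beyond 1 in either direction, which is 0.103% of 17512. Of those, 16 were higher (0.0914%) and 2 lower (0.0114%) with complement, and upper-quartile normalization gave 21 higher and 0 lower (0.12%). The leading pair was chosen on this contrast, so the member counts and the median that follow are a description from which nothing is read. Of the 7 members, 1 was among the 18, namely SELE. Groups that did not overlap were found for 2993 genes, or 17.1%, and with complement higher for 1568 genes, or 8.95%. The 3 members SELE, VCAM1 and ICAM1 of the 7 were among the latter. None of the 7 had groups apart with complement lower, against 8.14% of all tested genes. The median LFC of the 7 was 0.48, with SELE and VCAM1 among them, and that of all tested genes was 0.02. SELE was not among the genes passing without baseline library 2, where 0.0493% of all genes did, or with background subtracted, where 0.206% did and its LFC was 2.65. The number of genes passing moved from 9 without baseline library 2 to 298 without baseline library 1 (1.64%) and 1063 without complement library 3 (5.76%). With 3 libraries in each group, an exact permutation test of a single gene cannot give a p below 0.1.

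Per kb of exon, the baseline order of levels was CD44 at 155 CPM per kb, MCAM at 33.2, VCAM1 at 29.1, ICAM1 at 7.78, ALCAM at 6.99, SELP at 3.93 and SELE at 3.60. Within this order only the steps from CD44 to MCAM, 4.67-fold, and from VCAM1 to ICAM1, 3.74-fold, separated neighbours whose 3 libraries did not overlap. SELE was thus the lowest of the 7 in baseline NPSC, though not apart from SELP. The order of the 7 means was the same with CPM by library total, with background subtracted and without each baseline library in turn.

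In complement NPSC the order became CD44 at 155 CPM per kb, VCAM1 at 69.1, MCAM at 30.1, SELE at 14.3, ICAM1 at 13.3, ALCAM at 5.62 and SELP at 5.49. VCAM1 stood above MCAM without overlap, and SELE stood above ALCAM and SELP and overlapped with ICAM1. Among all tested genes, SELE lay between percentiles 13.9 and 24.9 per baseline library and between 40.8 and 72.5 per complement library. VCAM1 went from between 77.1 and 86.7 to between 91.9 and 96.9. CD44 lay above percentile 97.0 in every library.

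**Figure D2:**
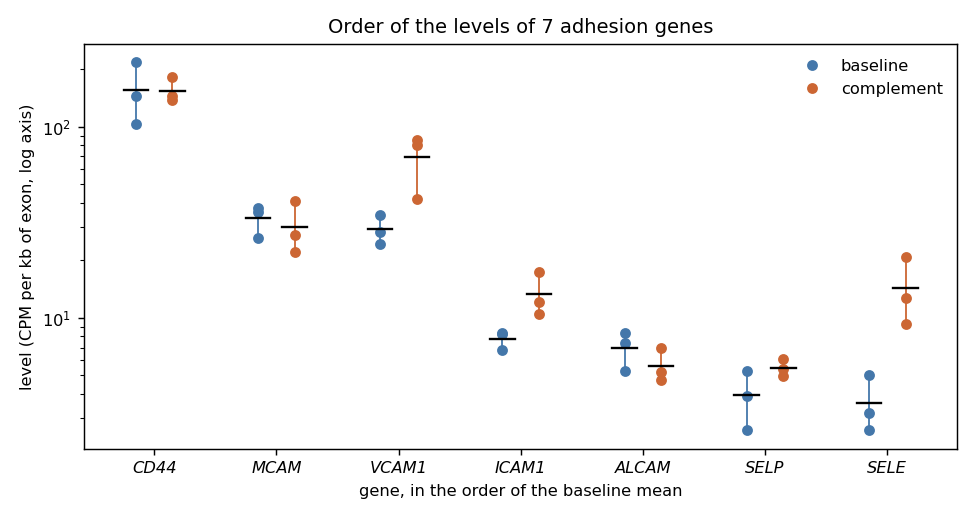
Level of each gene in CPM per kb of exon (log axis) in baseline (blue) and complement (orange) libraries, with genes in the order of their baseline mean, points for libraries, thin lines for the range and black dashes for the mean. SELE, last in the baseline order at 3.60 CPM per kb, stands at 14.3 in complement NPSC, and VCAM1 goes from 29.1 to 69.1, while CD44 stays at a mean of 155.

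Ratios of raw counts within a library do not depend on how libraries are scaled, and the lengths of the genes cancel when libraries are compared. These were computed after the values above had been seen. SELE was counted 1.04, 1.08 and 0.880 times as often as SELP in the baseline libraries and 2.57, 2.05 and 3.69 times as often in the complement libraries. The ratio of VCAM1 to MCAM was 0.669, 0.675 and 0.571 in baseline and 2.27, 1.36 and 1.43 in complement NPSC. ICAM1 over ALCAM gave 0.833, 0.969 and 0.752 in baseline and 1.75, 1.68 and 1.86 in complement NPSC. Background does not cancel in such ratios. Its expected share in complement libraries 1 and 2 was 64.9% and 77.9% of SELP counts and 67.5% and 81.9% of ALCAM counts. All 3 ratios were higher in every complement library. These 3 ratios were picked for the members that were higher, so nothing is read from their direction. Of the 12 ratios of SELE, VCAM1 or ICAM1 to one of the other 4 members, 8 had groups that did not overlap, and the 4 that overlapped were those of VCAM1 and ICAM1 to SELP and to CD44. Groups were also apart for 2 of 3 ratios within SELE, VCAM1 and ICAM1, those of SELE to each of the other two. Within the other 4 members they were apart for 2 of 6, those of SELP to ALCAM and to MCAM. The share over ratios of all genes was not computed. SELE and VCAM1 were chosen on this contrast, so these counts are a description from which nothing is read.

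Since SELE is best known from endothelium, and endothelial markers were present, the members were also set against the summed level of the 10 endothelial markers, again after their values had been seen. Per 100 CPM of endothelial markers, SELE had 1.88, 1.25 and 0.994 CPM in the baseline libraries and 6.04, 5.61 and 5.58 CPM in the complement libraries. VCAM1 had 9.60, 8.83 and 6.60 CPM in baseline and 29.9, 18.8 and 16.2 CPM in complement NPSC on this scale. ICAM1 had 3.22, 3.45 and 2.75 against 6.01, 6.68 and 4.88 CPM. The groups stayed apart for these 3 genes and overlapped for SELP, ALCAM, MCAM and CD44. In bulk RNA, more cells of a type and more RNA per cell cannot be told apart, and which cells carried the SELE and VCAM1 transcripts was not tested.

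The other marker lists are given for the same reason. Leydig cell markers, of which CYP11A1 was listed at 0, summed to 1177 to 1332 CPM in baseline and 858 to 933 CPM in complement NPSC, without overlap. Peritubular myoid markers ranged from 2948 to 4470 and from 2366 to 4362 CPM, with MYH11 listed at 0, and germ cell markers from 317 to 499 and from 224 to 411 CPM. Macrophage markers ranged from 120 to 185 CPM in baseline and from 96.4 to 145 CPM in complement NPSC, and lymphocyte and other leukocyte markers from 125 to 155 and from 114 to 209 CPM. The median LFC was 0.57 over the 10 leukocyte markers, -0.44 over the 14 Sertoli, -0.52 over 5 tested Leydig and -0.31 over the 8 macrophage markers. An unadjusted edgeR p below 0.05 was found for 4 of the 10 leukocyte markers (CD3D, CD4 and MS4A1 higher and LCP1 lower). It was also found for 8 of 14 Sertoli, 3 of 5 Leydig and 3 of 8 macrophage markers, beside 15.2% of all genes. Of those Sertoli markers, DHH, KRT18 and TF were higher and WT1, GATA4, INHA, FSHR and CLDN11 were lower. The Leydig and macrophage markers with such a p were all lower. The 2 platelet markers in the files summed to 11.6 to 23.1 and 19.8 to 26.0 CPM. Expected background came to 24.1% of the macrophage, 38.3% of the leukocyte and 47.4% of the platelet marker counts. For single leukocyte markers it came to 57.2% of CD3D, 38.0% of CD4 and 16.5% of LCP1 counts. MS4A1 had fewer counts than background alone would give. No gene of these lists passed the edgeR thresholds, and their part in the SELE and VCAM1 values was not tested.

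Background weighed unevenly on the 7 genes. Expected background counts, taken as exon length times the olfactory receptor density of the library, amounted to 1.36% of all CD44 counts, 4.58% for VCAM1 and 6.49% for MCAM. They amounted to 20.6% for ICAM1, 25.6% for SELE, 32.3% for ALCAM and 45.8% for SELP. For SELE the share was 42.0%, 51.6% and 41.1% in the baseline libraries and 27.4%, 41.4% and 8.08% in the complement libraries, so the excess over background was largest where SELE was highest. In complement library 2 the share reached 77.9% for SELP and 81.9% for ALCAM, which leaves little to read from those 2 genes there. With background subtracted, SELE had 6.97 ± 3.43 CPM in baseline and 43.2 ± 19.5 CPM in complement NPSC, and the ALCAM LFC was -0.87 (edgeR adjusted p = 0.531, with a range from 0.123 to 0.986 over its alternatives). The density is an average over genes and need not hold for each one.

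**Figure D3:**
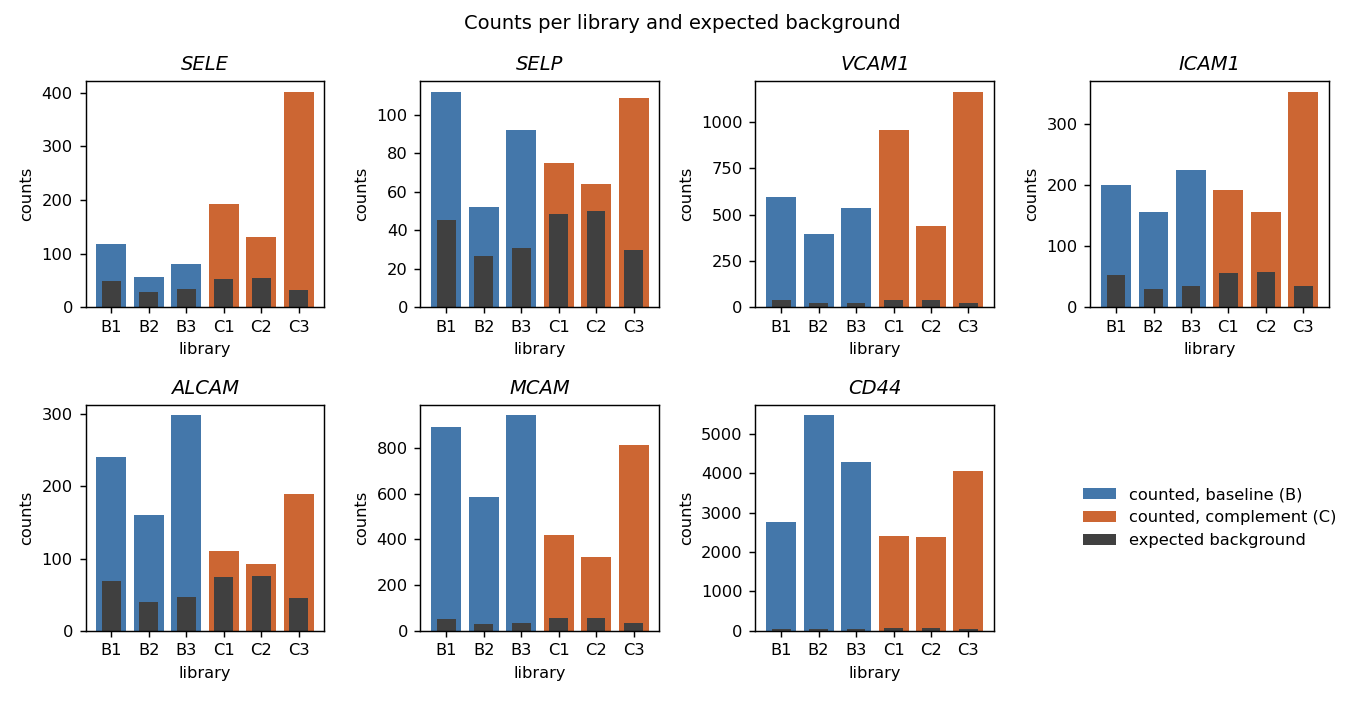
Raw counts of each gene (vertical axis) in baseline libraries B1 to B3 (blue) and complement libraries C1 to C3 (orange), with the counts expected from background as narrow dark bars. Background fills a small part of the VCAM1, MCAM and CD44 bars, up to 51.6% of a SELE bar and up to 81.9% of an ALCAM bar.

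Coordinates are those of the deposited files, whose genome build is not named. SELE (ENSSSCG00000006286) lies on chromosome 4 from 88914284 to 88924075 on the plus strand, with 13 exons of 3361 bp in sum. SELP (ENSSSCG00000006288) follows on the same strand from 88990349 to 89025954. VCAM1 (ENSSSCG00000006862) lies on the same chromosome from 129040262 to 129054592 on the minus strand, with 7 exons of 2505 bp. ICAM1 (ENSSSCG00000013655) was annotated on chromosome 2 from 69431300 to 69556700, and 9 other genes lie within this span because its last exon of 236 bp follows an intron of 113.9 kb. CD44 (ENSSSCG00000013297) lies on chromosome 2, MCAM (ENSSSCG00000015116) on chromosome 9 and ALCAM (ENSSSCG00000011946) on chromosome 13. None of the 7 shared exon sequence with another gene in the annotation, though the strand setting of the counting is not given in the sources used here.

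Neighbouring genes within 200 kb are given for SELE, VCAM1 and ICAM1. SELE and VCAM1 were chosen on this contrast, so their difference from their neighbours is a description only. Around SELE, 6 of 8 neighbours were tested and 0 passed the edgeR thresholds, beside 0.103% of all genes, with LFC from -0.41 for METTL18 to 0.48 for SELP. F5, which encodes coagulation factor V and lies beyond SELP, had an LFC of 0.36. Around VCAM1, 4 of 5 neighbours were tested and 0 passed, with LFC from -0.39 for EXTL2 to 0.01 for SLC30A7. ICAM1 lies in a dense region that also holds ICAM3, ICAM4 and ICAM5, and 0 of its 26 tested neighbours passed. Their LFC ran from -0.41 to 1.20 for ICAM5, above the 0.78 of ICAM1, and 4 of them had complement wholly above baseline and 2 wholly below, beside 8.95% and 8.14% of all tested genes.

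**Figure D4:**
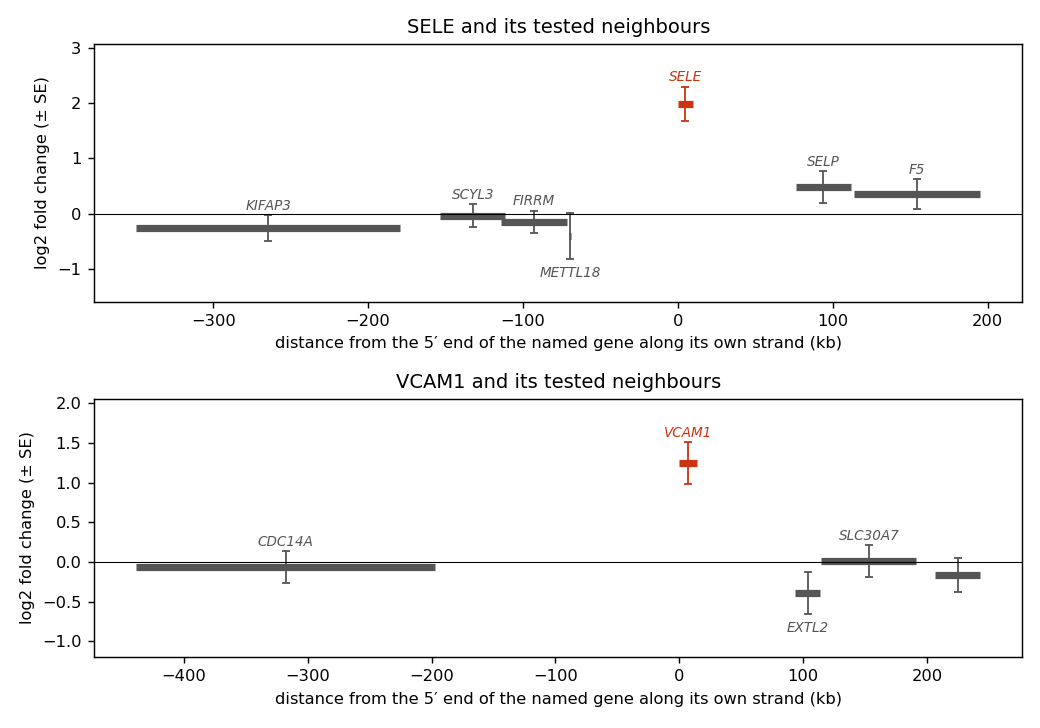
LFC of SELE and VCAM1 (red) and of their tested neighbours (grey) against distance in kb from the 5′ end of the named gene along its own strand, with bar length for the span of the gene and whiskers for ± SE. SELE is at 1.99 and VCAM1 at 1.25, and their neighbours range from -0.41 to 0.48 and from -0.39 to 0.01. SELE and VCAM1 were chosen on this contrast, so their place above the neighbours is no separate result.

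Further genes of leukocyte adhesion were taken from a list of 115 symbols in 6 groups. Of these, 77 were in the files and 74 were tested. In edgeR 0 of the 74 passed the thresholds, beside 0.103% of all genes, whereas 16 had an unadjusted p below 0.05, beside 15.2% of all genes, and 3 passed in DESeq2, beside 0.358%. Of the other alternatives named for these genes, the fit with the background covariate called 0.331% of all genes and the one with no count filter 0.142%. Complement libraries lay wholly above baseline for 10 of the 74 and wholly below for 7, beside 8.95% and 8.14% of all tested genes. The median LFC of the 74 was -0.04.

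The list of inducing receptors and transcription factors, which holds activators of SELE and VCAM1 and also inhibitors of NF-κB, had 6 of 20 tested genes with complement above baseline in every library and 2 below, beside 8.95% and 8.14% of all tested genes. NFKBIA, the inhibitor that NF-κB itself induces, was measured at 150, 198 and 149 CPM in baseline and at 299.8, 318 and 629 CPM in complement NPSC. Its LFC was 1.33 with a standard error of 0.30 (edgeR adjusted p = 0.176). NFKB1, which encodes the p50 precursor, had 14.2, 18.1 and 13.3 against 31.4, 23.4 and 55.2 CPM and an LFC of 1.28 with a standard error of 0.29 (edgeR adjusted p = 0.177). In both, complement library 3 was the highest, as it was for SELE. TNFAIP3, the ubiquitin-editing enzyme A20 that restrains NF-κB, had an LFC of 1.12 (edgeR adjusted p = 0.261). It is named after its values were seen, as are IRF1, REL and NFKB2, the remaining 3 genes whose complement libraries were all higher. IRF1 had an LFC of 0.61, REL of 0.54 and NFKB2 of 0.37. The 2 genes whose complement libraries were all lower did not pass the test. TNFRSF1A, a TNF receptor, had an LFC of -0.49 (edgeR adjusted p = 0.325), and the lymphotoxin receptor LTBR, named after its values were seen, had -0.47 (edgeR adjusted p = 0.331). TNFAIP3 passed in DESeq2, with background subtracted and with the background covariate. NFKBIA passed in the same 3 alternatives, and NFKB1 passed with the covariate and without baseline library 1. TNFAIP3, NFKBIA and NFKB1 each also passed with the replicate block, where 4.16% of all genes did. The median LFC of the 20 was -0.01.

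Hyaluronan synthases make the ligand of CD44. HAS2 had 19.1, 15.5 and 13.0 CPM in baseline and 30.3, 32.4 and 47.9 CPM in complement NPSC. All complement libraries were higher, with an LFC of 1.22 and a standard error of 0.24, but the edgeR adjusted p was 0.0848. Over the alternatives without pairing this p ranged from 0.0145 without baseline library 1 to 0.409 without baseline library 2. HAS2 was past both thresholds in DESeq2, with no count filter, with the background covariate, without baseline library 1 and with the replicate block. HAS1, named after its values were seen, went from 26.4 ± 2.65 to 43.0 ± 7.04 CPM (SD, n = 3 each) with an LFC of 0.71 (edgeR adjusted p = 0.261). Both were higher in every complement library, while CD44 itself had overlapping groups. Osteopontin (SPP1), another CD44 ligand, was measured at 106, 125 and 207 CPM in baseline and at 264, 354 and 75.4 CPM in complement NPSC, so complement library 3 was its lowest of all. Its LFC was 0.66 (edgeR adjusted p = 0.413), passed at 1.05 without complement library 3 and turned to -0.57 with the background covariate, with edgeR adjusted p from 0.0411 to 0.941 over its alternatives. MSN, which links CD44 to actin, had an LFC of -0.15 (edgeR adjusted p = 0.799), and the proteoglycan SRGN had -1.16 (edgeR adjusted p = 0.293) with 30.4% of its counts expected from background. The SRGN value was -0.54 without baseline library 3 and -2.44 with background subtracted. The 12 tested genes of this group had a median LFC of -0.14.

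Ligands and counter-receptors on the leukocyte side had 1 of 12 genes with complement wholly above baseline, 4 with an unadjusted p below 0.05 and a median LFC of 0.46, beside 8.95%, 15.2% and 0.02 for all tested genes. That gene was CD6, the T cell partner of ALCAM, at 23.2, 18.4 and 14.0 CPM in baseline and 31.6, 38.9 and 25.2 CPM in complement NPSC (LFC 0.78, edgeR adjusted p = 0.267), with 32.7% of its counts expected from background. ITGB1, the β1 chain of the integrin that binds VCAM1, was the most abundant, at 1383 ± 163 CPM in baseline and 1141 ± 432 CPM in complement NPSC (SD, n = 3 each). Its LFC was -0.28 (edgeR adjusted p = 0.647) and turned to 0.22 with the background covariate. GLG1, which carries sugars bound by E-selectin, had an LFC of -0.50 (edgeR adjusted p = 0.331). ITGAE, an integrin chain of intraepithelial T cells, had 0.71 (edgeR adjusted p = 0.282), with 20.2% of its counts expected from background, and 0.099 with the background covariate (edgeR adjusted p = 0.989, the highest of its alternatives, with 0.0445 the lowest without pairing).

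Junctional and transmigration molecules, through which leukocytes pass between cells, had 1 of 14 genes wholly higher and 2 wholly lower with complement, beside 8.95% and 8.14% of all tested genes, and a median LFC of -0.18. The higher gene was ICAM5, at an LFC of 1.20 with an edgeR adjusted p of 0.301, but its counts were fewer than background alone would give. ICAM4, a red cell molecule that binds leukocyte integrins, also had no more counts than expected from background, with an LFC of 0.61 (edgeR adjusted p = 0.545). The lower pair was JAM2 at -0.38 and JAM3 at -0.33, named after their values were seen. F11R, the tight junction molecule JAM-A, had -0.25 (edgeR adjusted p = 0.521), and the laminin receptor BCAM had -0.43 (edgeR adjusted p = 0.372).

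Enzymes that build selectin ligands had 0 of 7 genes wholly higher and 2 wholly lower with complement, beside the same shares of all genes, and a median LFC of -0.04. ST3GAL4, a sialyltransferase, had an LFC of -0.42 (edgeR adjusted p = 0.331), and TPST1, which sulfates tyrosines such as those of the P-selectin ligand, had -0.49 (edgeR adjusted p = 0.334). CHST4, a sulfotransferase of selectin ligands, had 0.48 (edgeR adjusted p = 0.578), with background at 87.8% of its counts. Of the 9 tested genes of shedding, 1 had complement wholly lower, and their median LFC was -0.04. The lower gene was the gelatinase MMP9, with 121, 152 and 271 CPM in baseline and 103, 111 and 23.1 CPM in complement NPSC, and its LFC of -1.21 did not pass (edgeR adjusted p = 0.272). The MMP9 value was -2.39 with the background covariate and -0.80 without complement library 3, its lowest library. ADAM10, which cleaves CD44, had an LFC of -0.42 (edgeR adjusted p = 0.358). MMP2, a second gelatinase, was at -0.08 (edgeR adjusted p = 0.873) and the inhibitor TIMP1 at 0.11 (edgeR adjusted p = 0.854), and both changed sign under some alternatives, TIMP1 without baseline library 1 and without complement library 3.

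**Figure D5:**
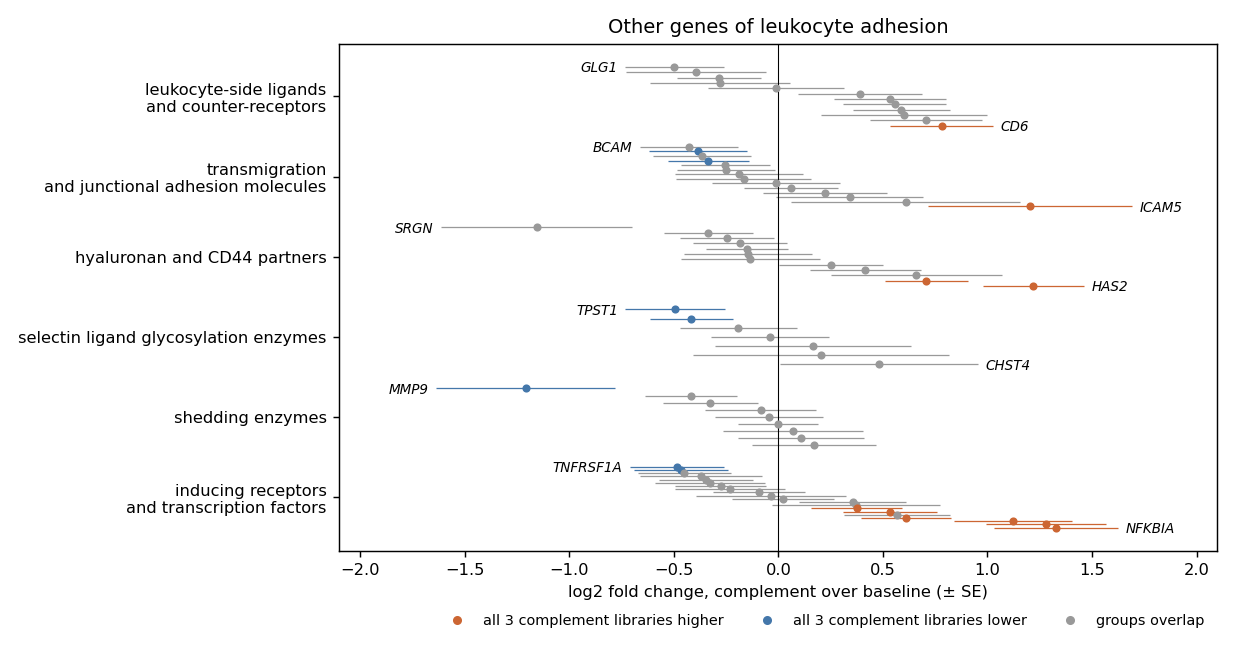
LFC of complement over baseline with SE (horizontal axis) for the 74 tested genes of leukocyte adhesion in 6 groups, coloured by whether all complement libraries were higher (orange, 10 genes), lower (blue, 7 genes) or overlapped with baseline (grey). The genes furthest to the right are NFKBIA, NFKB1, HAS2 and ICAM5, and those furthest to the left are MMP9 and SRGN.

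Genes with a symbol were ranked by how closely their pattern over the 6 libraries followed that of SELE or VCAM1, by the root mean square difference of centred log2 CPM over 11054 genes. For SELE the nearest were EGR1 at 0.302, IER3 at 0.369, SH2D1A at 0.371, PI16 at 0.399 and MAP3K8 at 0.399, where the median gene differed by 1.10. EGR1, an immediate early transcription factor, had 209, 173 and 134 CPM in baseline and 452, 479 and 1163 CPM in complement NPSC. IER3, an early gene of stress and NF-κB signalling, had 299, 232 and 209 against 493, 607 and 995 CPM. In both, as in SELE, complement library 3 was the highest. SH2D1A, a lymphocyte adaptor, had fewer counts than expected from background, so its place rests on very few reads.

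For VCAM1 the nearest were MAP3K8 at 0.146, F3 at 0.280, GUCA2B at 0.281, SKAP1 at 0.285 and EVX2 at 0.286, with a median of 0.760. MAP3K8, a kinase of inflammatory signalling also near SELE, had 25.9, 20.4 and 22.1 CPM in baseline and 62.3, 41.5 and 69.5 CPM in complement NPSC. It shared with VCAM1 the low complement library 2. F3, which encodes tissue factor, the starter of coagulation, had 507, 451 and 353 against 852, 683 and 1196 CPM. Background came to 58.7% of SKAP1 and 48.5% of EVX2 counts. All these genes were selected for likeness to SELE or VCAM1, so their own difference between the groups is no separate result.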

How the data were processed

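The authors deposited raw counts per gene for each of 6 libraries, with exon coordinates and summed exon length. Per the processing notes of the submitters, the tools were Trimmomatic 0.36, STAR 2.5.2b and featureCounts of Subread 1.5.2. The genome build and strand setting are not given in the sources used here. Groups came from the sample titles, and symbols were available for 11805 identifiers.

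Genes were kept by filterByExpr, normalized by TMM and tested with the edgeR 4.0.16 quasi-likelihood test in R 4.3.3 across all 6 libraries, with Benjamini-Hochberg adjustment over 17512 genes. A gene passed at an adjusted p below 0.05 with an LFC beyond 1. The study used the DESeq2 Wald test, which is an alternative here (DESeq2 1.42.0). A prior count of 2 was used for log2 CPM. The fits were tested on simulated data. Named were all members, in each list of further genes the 2 highest per kb, the 2 with the largest LFC at a mean CPM of at least 1 and any that passed, and the 5 genes most like SELE or VCAM1. Members, lists and tests were chosen with earlier results of these data known. Of 25149 listed genes, 17512 were tested, and all 7 members were. Library totals limit precision for genes with few counts, such as SELE with 56 to 117 per baseline library. The p-values measure the spread between these plates, since which litter each plate came from is not stated. Of the neighbouring genes, 1 is not reported here.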

Additional observations from a re-analysis of the deposited data

How the results depend on the processing

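Members passing are counted as a description only, since SELE and VCAM1 were chosen on this contrast. The number of members passing (1), of further adhesion genes (0) and of all genes (18) became 2, 3 and 54 in DESeq2, and 0, 2 and 31 with background subtracted. Without a count filter 1 further gene and 31 genes passed, and with the background covariate 4 and 58. The replicate block gave 2, 7 (TNFAIP3, SRGN, MMP9, ICAM5, HAS2, NFKBIA and NFKB1) and 728, the last being 4.16% of all tested genes. Of those 7, ICAM5 had fewer counts than background alone would give. Libraries of the same number were not treated as paired, since their deviations from the group means correlated at 0.456, 0.030 and 0.482 and baseline library 2 correlated best with complement library 3 (0.066). Leaving out each library gave 0 to 2 members, 0 to 2 further genes and 9 to 1063 genes, and 1063 came without complement library 3. DESeq2 size factors, the upper-quartile scaling and the filter of 10 counts left the members at 1 and the further genes at 0. The LFC of SELE ran from 1.59 to 2.65, that of VCAM1 from 1.07 to 1.51 and that of ICAM1 from 0.51 to 1.04, with no change of sign. The cause of the following reversals was not tested, and none of these values passed. CD44 was at 0.11 with upper-quartile scaling, 0.030 with at least 10 counts, 0.056 with the block, 0.27 with background subtracted, 0.45 with the covariate, and 0.30, 0.082 and 0.028 without baseline library 2, complement library 1 and complement library 2. Leaving out libraries moved CD44 from -0.24 to 0.30, MCAM from -0.46 to 0.014, TIMP1 from -0.25 to 0.31 and MMP2 from -0.41 to 0.063. The covariate turned MCAM to 0.11, ITGB1 to 0.22, F11R to 0.043, MSN to 0.32, MMP2 to 0.33, SPP1 to -0.57 and CHST4 to -0.52. Subtraction of background turned MSN to 0.081 and MMP2 to 0.13. TIMP1 was at -0.10 without baseline library 1 and -0.25 without complement library 3. MMP2 was at 0.014 with upper-quartile scaling, and at 0.063, 0.0068 and 0.058 without baseline library 3, complement library 1 and complement library 2. Of the other values for single genes, 333 kept their direction and their side of the thresholds and 16 came to pass. SELE and VCAM1 are left out of these counts.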
